A study of Mus musculus with 16 samples.

Results

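The 10 genes described here are genes of inherited neuroaxonal dystrophy with iron accumulation in the brain (Pla2g6, Pank2, Wdr45, Fa2h, Atp13a2, Coasy and Cp) together with genes of iron storage and uptake (Fth1, Ftl1 and Tfrc). They were chosen by name from the 55404 genes of the deposited table, with earlier results of these data known but by no rule on their values, and all 10 passed the filter on low values that left 23244 genes to test. Total RNA of whole brain had been sequenced from 8 Tecpr2 ki/ki mice, which are homozygous for the L1152Yfs frameshift made by CRISPR/Cas9 in C57BL/6J zygotes, and from 8 wt/wt mice with the unedited gene. All 16 mice were untreated males of 5 months, 1 library each, and apart from the Tecpr2 allele no difference between the genotypes is given. The frameshift is a germline change carried by every cell of the ki/ki mice, the number of founders is not given in the sources used here, and each library mixed all regions and cell types of the brain. In such bulk RNA, fewer cells of a type and less RNA per cell cannot be told apart.

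Neuroaxonal dystrophies are disorders in which axons swell into spheroids, and in the subgroup known as neurodegeneration with brain iron accumulation, iron builds up mainly in the basal ganglia. The genes behind them work in different compartments. Pank2 and Coasy make coenzyme A, Pla2g6 remodels phospholipids, Wdr45 serves autophagosome formation, Atp13a2 is a lysosomal transporter, Fa2h hydroxylates the fatty acids of myelin lipids, and Cp oxidises iron so that it can leave cells. Cells take up iron bound to transferrin through the transferrin receptor, made from Tfrc, and store it in ferritin shells built from heavy chains (Fth1) and light chains (Ftl1). TECPR2, the protein of the edited gene, is linked to a hereditary sensory and autonomic neuropathy that also shows axonal spheroids.

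Iron controls the ferritins and the transferrin receptor through iron-responsive elements, short hairpins in the mRNA. Iron regulatory proteins bind them when iron is scarce, which blocks translation of ferritin mRNA and protects Tfrc mRNA from decay. The hairpins are shown because they set these 3 genes apart from the other 7. In the transcripts of the 10 genes, 27-base windows were searched for a C, 5 bases, then CAGTG and 1 more base (the loop), and 5 bases able to pair with the 5 before the loop by Watson-Crick or G-U pairs. Fth1, Ftl1 and Tfrc held such a match, and 369 of 21951 protein-coding genes (1.68%) held one. A match is a description of sequence and not a measured site. The matches in the GENCODE transcripts of GRCm38 read as follows, 5′ to 3′ in the sense of the mRNA, with the loop in capitals.
Fth1, 5′ UTR, chr19:9982733-9982759, plus strand: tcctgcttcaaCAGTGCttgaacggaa
Ftl1, 5′ UTR, chr7:45459780-45459806, minus strand: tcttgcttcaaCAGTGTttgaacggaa
Tfrc, 3′ UTR, chr16:32631220-32631246, plus strand: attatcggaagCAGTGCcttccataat
Tfrc, 3′ UTR, chr16:32631599-32631625, plus strand: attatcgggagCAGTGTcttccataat
Tfrc, 3′ UTR, chr16:32631664-32631690, plus strand: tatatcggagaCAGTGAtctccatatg
Tfrc, 3′ UTR, chr16:32631711-32631737, plus strand: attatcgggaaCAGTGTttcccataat

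The values are linear normalised values that the authors had rounded to whole numbers, and their totals per mouse lay between 11964284 and 12252324, so that the totals no longer show the depth of each library. Labels were checked with Tecpr2, whose value had a median of 298.5 (274 to 320) in Tecpr2 ki/ki and of 968.5 (928 to 1002) in wt/wt mice, with no overlap (log2 fold change -1.68, limma adjusted p = 2.16e-47). Ki/ki mouse 3 and wt/wt mouse 3 stood apart from the other mice on the leading component of the variation left after removing the genotype means, which held 11% of that variation. They lay at 14.5 and 14, and the other end of the component was held by wt/wt mouse 7 (-10.4) and ki/ki mouse 8 (-9.86). Of the marker lists, 6 of 10 microglia markers and 3 of 10 astrocyte markers were higher in Tecpr2 ki/ki mice at an unadjusted limma p under 0.01, and no marker of oligodendrocytes, neurons, endothelium, choroid plexus or red blood cells met that limit. The summed microglia markers lay between 2481 and 2716 in ki/ki and between 2174 and 2412 in wt/wt mice, without overlap. Trem2, Cd68, C1qa and C1qb are on this list, and the paper reports them as upregulated in these same brains. The sum is therefore no independent measure of microglia. The summed astrocyte markers lay between 59965 and 62309 in ki/ki and between 56401 and 59965 in wt/wt mice. Of the 10 neuron markers, 9 had a lower mean in ki/ki mice, with a median log2 fold change of -0.034. Their sum lay between 64699 and 67687 in ki/ki and between 65012 and 69522 in wt/wt mice, with overlap. The summed red blood cell markers, from cells that hold much iron, lay between 683 and 805 in ki/ki mice, with a median of 704. In wt/wt mice they lay between 581 and 757, with a higher median of 713.5. All 7 that were tested had a higher mean in ki/ki mice, but none passed, the smallest limma p being 0.133 for Hbb-bs (adjusted p = 0.897). No matched marker was at 0 in all mice, and the part of these cell types in the values below was not tested.

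None of the 10 genes was called between Tecpr2 ki/ki and wt/wt mice by limma at the limit of 0.1 for the adjusted p, which 31 of 23244 genes (0.133%) passed. At an unadjusted p under 0.01, the study's second limit, 1 of the 10 genes passed, Tfrc, against 362 genes (1.56%) in all, and a count of 1 says nothing about the group as a whole. No gene of the 10 separated the genotypes without overlap, as 20 genes (0.086%) did. Of the 10 genes, 3 had a higher and 7 a lower mean in ki/ki mice, and their median log2 fold change was -0.016, beside -0.00098 for all genes tested. Differences between the genotypes were small throughout, the largest being -0.096 on the log2 scale for Tfrc, and the 95% intervals of 8 of the 10 genes included 0. Over the 10 genes the intervals reached from -12.9% to 10.9%.

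**Figure D1:**
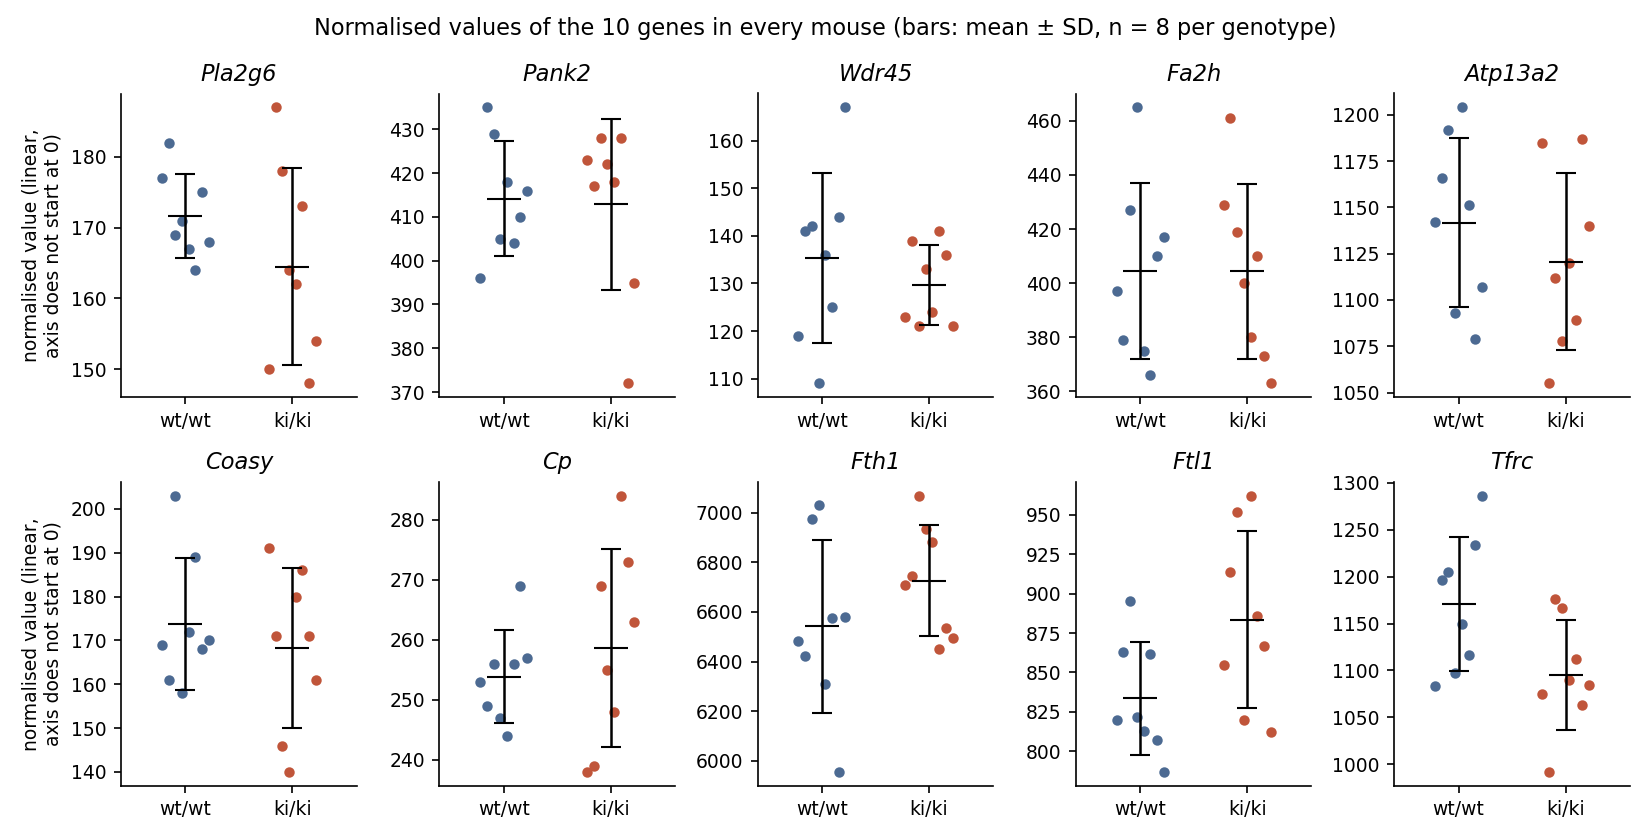
Normalised value (y axis, linear, different for each gene and not starting at 0) of the 10 genes in each wt/wt (blue) and Tecpr2 ki/ki mouse (red), with 1 point per mouse and black bars for the mean ± SD (n = 8 per genotype). The points of both genotypes overlap in all 10 panels, and Tfrc (1083 to 1286 in wt/wt, 992 to 1176 in ki/ki) and Ftl1 (787 to 895 in wt/wt, 812 to 962 in ki/ki) are shifted in opposite directions.

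**Figure D2:**
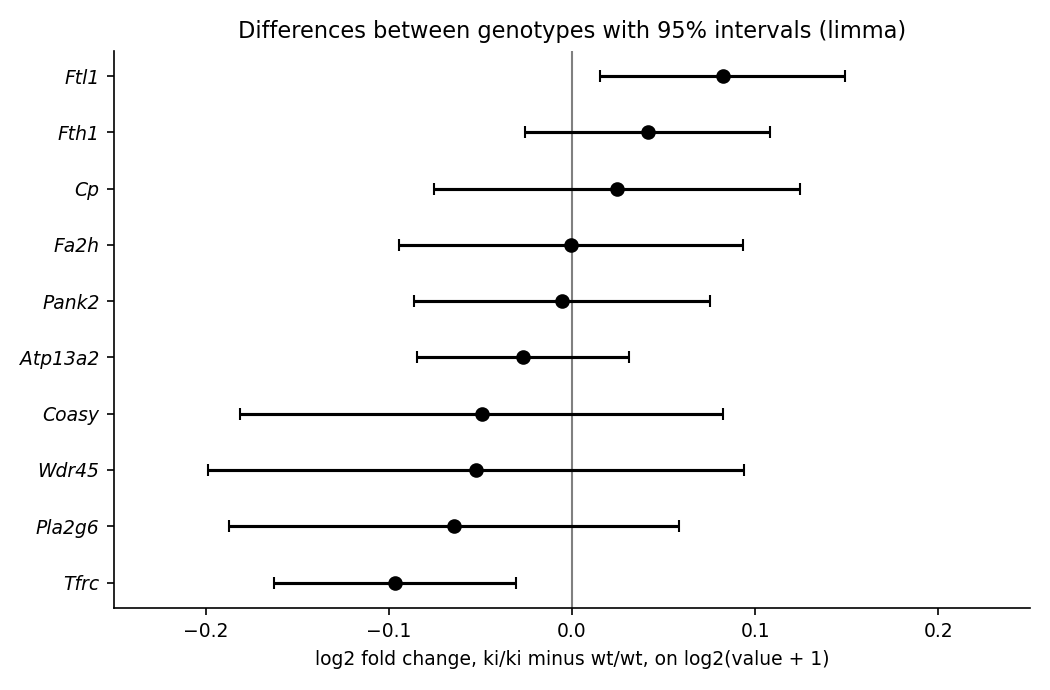
Log2 fold change between Tecpr2 ki/ki and wt/wt mice (x axis, on log2(value + 1)) of the 10 genes, ordered by size, with points for limma's estimate and bars for the 95% interval. The interval lies below 0 for Tfrc, at -0.16 to -0.030, and above 0 for Ftl1, at 0.016 to 0.15, and it crosses 0 for the other 8 genes.

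Tfrc (ENSMUSG00000022797, GRCm38 chromosome 16 from 32608920 to 32632794), the receptor through which cells take up transferrin-bound iron, had the smallest p of the 10 genes. Its normalised value had a median of 1087 (992 to 1176) in Tecpr2 ki/ki mice and of 1173 (1083 to 1286) in wt/wt mice. Ki/ki mice were the lower group, with 3 of 8 below every wt/wt mouse and 7 of 8 below the wt/wt median, while 4 of 8 wt/wt mice lay above every ki/ki mouse. The means were 1095 ± 58.6 and 1171 ± 71.4 (SD, n = 8 each), a log2 fold change of -0.096 (SE 0.0329) or -6.46% (95% interval -10.7% to -2.08%). The limma p was 0.00513 before and 0.531 after Benjamini-Hochberg adjustment, in position 222 of the 23244 genes ordered by p, and the exact two-sided permutation test gave an unadjusted p of 0.035. The gene therefore passed the unadjusted limit but not the adjusted one. With quantile normalization the p was 0.0105, and it was 0.0106 to 0.020 when any 1 of ki/ki mice 1, 2 and 7 or wt/wt mice 2, 3, 7 and 8 was left out. Without both mice numbered 3, the log2 fold change was -0.105 (limma adjusted p = 0.547). The 10 endothelial markers, from cells that carry much of the transferrin receptor of brain, had a median log2 fold change of -0.00057, and their sum lay between 3904 and 4109 in ki/ki and between 3898 and 4075 in wt/wt mice. The 10 neuron markers had 1 higher and 9 lower in ki/ki mice, with a median log2 fold change of -0.034. Whether either cell type bears on the Tfrc values was not tested.

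Ftl1 (ENSMUSG00000050708, chromosome 7 from 45457944 to 45459884), the ferritin light chain that helps iron crystallise inside the shell, had a difference of the opposite sign. In normalised values, Ftl1 had a median of 876.5 (812 to 962) in Tecpr2 ki/ki mice and of 821 (787 to 895) in wt/wt mice. The 3 highest values, 914, 952 and 962, belonged to ki/ki mice 2, 3 and 5 and lay above every wt/wt mouse, and 6 of 8 ki/ki mice exceeded the wt/wt median. The means were 883.5 ± 56.1 and 833.6 ± 35.98 (SD, n = 8 each), a log2 fold change of 0.082 (SE 0.0335) or 5.88% (95% interval 1.08% to 10.9%). Limma gave p = 0.0165 and an adjusted p of 0.699, and the exact two-sided permutation test gave p = 0.0555, so the difference was not called. With 1 mouse left out, the limma adjusted p lay between 0.566 and 0.880. The unadjusted limma p was under 0.01 without ki/ki mouse 4 (0.00621), ki/ki mouse 8 (0.00448) or wt/wt mouse 3 (0.00582), and it was highest, at 0.0626, without ki/ki mouse 5. Microglia are among the cells that hold ferritin in brain. The summed microglia markers given above were higher in every ki/ki than in every wt/wt mouse. That sum holds Trem2, Cd68, C1qa and C1qb, which the paper had already reported as upregulated in these same brains. It is therefore no independent measure of microglia. Not all of the microglia markers differed. Aif1 (log2 fold change -0.0058), Csf1r (0.020), Tmem119 (0.055) and Cx3cr1 (0.10) had limma p of 0.971, 0.568, 0.417 and 0.0193. The oligodendrocyte markers had 4 higher and 6 lower in ki/ki mice, with a median log2 fold change of -0.019. Whether either cell type bears on the Ftl1 values was not tested.

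Ftl1 is also the gene whose values are least certain, because the mouse genome holds many copies of it. Of its 31-base words, 57.7% also occur in transcripts of other genes, 30 genes in all. Ftl1-ps1 shared 54.4%, Gm15590 28.3% and Ftl2-ps 25.5% of the Ftl1 words. Their normalised values were low beside that of Ftl1. Ftl1-ps1 had means of 118.8 ± 17.6 in ki/ki and 114.0 ± 11.1 in wt/wt mice (log2 fold change 0.050, limma adjusted p = 0.968). Gm15590 had means of 76.0 ± 4.72 and 70.1 ± 17.1 (0.15, limma adjusted p = 0.902), and Ftl2-ps 87.4 ± 7.69 and 79.4 ± 14.99 (0.15, limma adjusted p = 0.883). In each of these copies the genotypes overlapped, and 0 of the 3 was called. Summed over Ftl1 and its copies, 6 genes in all, the value had a median of 1162 (1059 to 1280) in ki/ki and of 1096 (1034 to 1194) in wt/wt mice. This sum had a log2 fold change of 0.088, beside 0.082 for Ftl1 alone. The sum was formed after the Ftl1 values had been seen and contains them, so no p-value is given for it. It stays the same when reads move between Ftl1 and these copies. Reads that match several genes may also have been left out of the counts, which was not tested.

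Fth1 (ENSMUSG00000024661, chromosome 19 from 9980598 to 9985098), the ferritin heavy chain with the ferroxidase activity that loads iron into the shell, had the highest value of the 10 genes. Per mouse, its value had a median of 6726 (6451 to 7068) in Tecpr2 ki/ki mice and of 6529 (5956 to 7032) in wt/wt mice. The lowest 3 values belonged to wt/wt mice and 6 of 8 ki/ki mice lay above the wt/wt median, but the ranges overlapped over most of their length. The means were 6727 ± 224 and 6542 ± 348 (SD, n = 8 each), a log2 fold change of 0.041 (SE 0.0313, 95% interval -0.025 to 0.11, limma p = 0.207, adjusted p = 0.903, exact permutation p = 0.227). Quantile normalization gave 0.070 (limma adjusted p = 0.460), the only alternative run in which its unadjusted limma p was under 0.01, and without wt/wt mouse 7, the lowest at 5956, it was 0.022. Fth1 shared 3.2% of its words with other genes, and the pseudogenes Gm6977 (25.6 ± 8.55 in ki/ki, 24.8 ± 5.52 in wt/wt) and Fth-ps2 (24.0 ± 5.10 and 26.4 ± 1.41) had low and overlapping values (limma adjusted p = 0.996 and 0.928).

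Set against each other, receptor and light chain varied as follows. The ratio of the Tfrc to the Ftl1 value in the same mouse had a median of 1.25 (1.09 to 1.42) in Tecpr2 ki/ki mice and of 1.37 (1.29 to 1.63) in wt/wt mice. In 6 of 8 ki/ki mice it lay below every wt/wt mouse, the others being ki/ki mouse 4 at 1.42 and mouse 8 at 1.33. The ratio was formed after the single values of both genes had been seen, so it is given without a test. The ratio of Tfrc to Fth1 lay between 0.147 and 0.172 in ki/ki and between 0.156 and 0.207 in wt/wt mice, and that of Fth1 to Ftl1, the chains of the same shell, between 7.15 and 8.46 and between 7.38 and 8.55. Across the 16 mice, with the genotype means removed, Ftl1 followed Fth1 with Pearson's r = 0.409 (permutation p = 0.114, adjusted over 6 correlations 0.228) and Spearman's rho = 0.397 (p = 0.130, adjusted 0.260), which did not pass the test. Within the genotypes r was 0.471 in ki/ki and 0.427 in wt/wt mice, and without the 2 mice farthest from the Fth1 median it was 0.505. It was 0.306 with libraries scaled to the mean total and 0.169 without both mice numbered 3 (permutation p = 0.565, adjusted 0.847). Tfrc and Fth1 had r = -0.024 (permutation p = 0.931, adjusted 0.931; rho = 0.106, p = 0.695, adjusted 0.954), with r = 0.453 in ki/ki and -0.288 in wt/wt mice, and r = 0.382 without the 2 farthest mice.

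**Figure D3:**
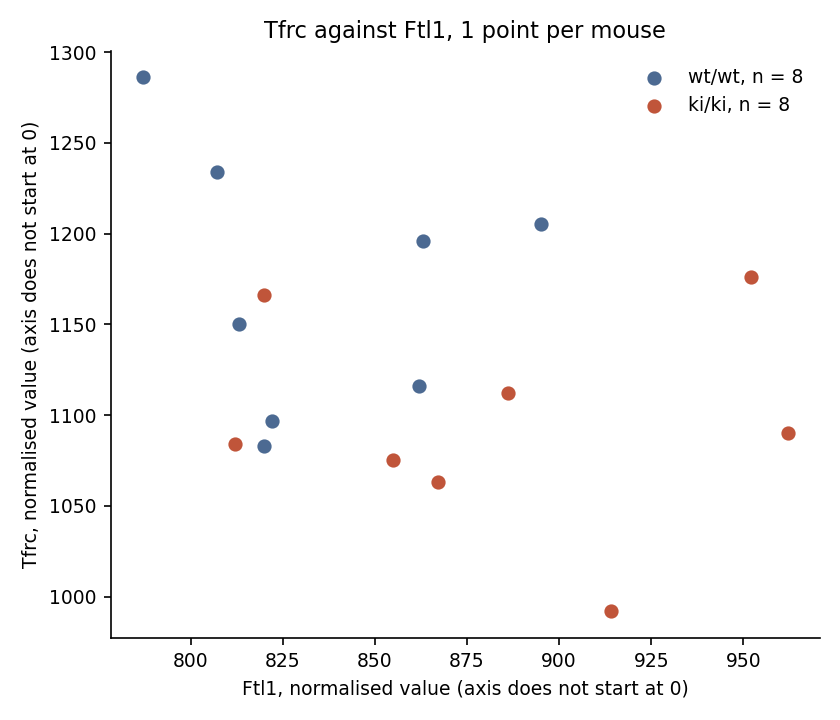
Normalised value of Tfrc (y axis) against that of Ftl1 (x axis) in the 16 mice, with 1 point per mouse, wt/wt in blue and Tecpr2 ki/ki in red, on linear axes that do not start at 0. The 3 mice with the most Ftl1 (914, 952 and 962) are ki/ki, the 4 with the most Tfrc (1196 to 1286) are wt/wt, and the other mice mix.

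Cp (ENSMUSG00000003617, chromosome 3 from 19957054 to 20009145), the copper-containing ferroxidase ceruloplasmin that astrocytes and choroid plexus make in brain, had overlapping values. Its median was 259 (238 to 284) in Tecpr2 ki/ki mice and 254.5 (244 to 269) in wt/wt mice. The ki/ki mice surrounded the wt/wt mice, with 2 above and 2 below all of them. The log2 fold change was 0.025 (95% interval -0.075 to 0.12, limma p = 0.624, adjusted p = 0.975, exact permutation p = 0.486), and with 1 mouse left out it lay between 0.0051 (without ki/ki mouse 6, the highest) and 0.041 (without ki/ki mouse 1, the lowest of the ki/ki mice). Cp lies over Hps3 on the opposite strand, and in the same way Pank2 lies over Rnf24, Pla2g6 over Gm20420 and Ftl1 over Gm10252. The library kit marked strand, but whether the counting used it is not given in the sources used here, so reads of such partners may be mixed. Cp varied with the mean of 10 choroid plexus markers with r = 0.447 (permutation p = 0.0829, adjusted 0.228) and rho = 0.496 (p = 0.0526, adjusted 0.158). This r was 0.200 without ki/ki mice 2 and 5, so that it rested in part on them, and it was 0.406 within ki/ki and 0.596 within wt/wt mice. Of the astrocyte markers, 3 of 10 were higher in ki/ki mice, as given above, beside the 1.72% difference of Cp, and a link between them was not tested.

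The genes of coenzyme A synthesis had close values in both genotypes. Pank2 (ENSMUSG00000037514, chromosome 2 from 131262495 to 131299188), a pantothenate kinase of the first step of the pathway, had a median of 420 (372 to 428) in Tecpr2 ki/ki and of 413 (396 to 435) in wt/wt mice. The lowest value, 372, was that of ki/ki mouse 7, and the other 15 mice lay between 395 and 435. Its log2 fold change was -0.0052 (95% interval -0.086 to 0.076, limma p = 0.898, adjusted p = 0.993, exact permutation p = 0.902), and without ki/ki mouse 7 it was 0.016. Coasy (ENSMUSG00000001755, chromosome 11 from 101082565 to 101086619), the enzyme that completes coenzyme A, had a median of 171 (140 to 191) in ki/ki and of 169.5 (158 to 203) in wt/wt mice. Ki/ki mice 3 and 4, at 146 and 140, lay below all wt/wt mice, and the log2 fold change was -0.049 (95% interval -0.18 to 0.082, limma p = 0.457, adjusted p = 0.957, exact permutation p = 0.529). It was -0.013 without ki/ki mouse 4, -0.017 without wt/wt mouse 3, -0.021 without ki/ki mouse 3, -0.031 without wt/wt mouse 6 and -0.076 without ki/ki mouse 1, and 0.011 without both mice numbered 3. Across mice, the start and the end of the pathway had no detectable relation (r = 0.034, permutation p = 0.902, adjusted 0.931; rho = 0.071, p = 0.795, adjusted 0.954; r = -0.032 within ki/ki, 0.171 within wt/wt and 0.085 without the 2 farthest mice). Pank2 shares 6.5% of its words with Gm14233.

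Pla2g6 (ENSMUSG00000042632, chromosome 15 from 79286228 to 79328390) encodes the calcium-independent phospholipase A2 whose loss causes infantile neuroaxonal dystrophy. Among Tecpr2 ki/ki mice its value had a median of 163 (148 to 187), and among wt/wt mice of 170 (164 to 182). The ki/ki mice were spread more widely, with 4 of 8 below every wt/wt mouse and 1 above all of them, and their coefficient of variation was 8.47% against 3.47%, a difference in spread that was not tested. The log2 fold change was -0.064 (95% interval -0.19 to 0.058, limma p = 0.299, adjusted p = 0.928, exact permutation p = 0.212). Pla2g6 shares no 31-base word with another gene.

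Wdr45 (ENSMUSG00000039382, chromosome X from 7714333 to 7728206) encodes WIPI4, a propeller protein of autophagosome formation, and its human counterpart is the X-linked gene of beta-propeller protein-associated neurodegeneration. The value of Wdr45 had a median of 128.5 (121 to 141) in Tecpr2 ki/ki and of 138.5 (109 to 167) in wt/wt mice. All ki/ki values lay inside the wt/wt range, which was the widest of the 10 genes at a coefficient of variation of 13.2%. The log2 fold change was -0.053 (95% interval -0.20 to 0.094, limma p = 0.476, adjusted p = 0.958, exact permutation p = 0.456), and without wt/wt mouse 8, the highest of all at 167, it was -0.0081 (-0.027 without both mice numbered 3). Wdr45 shares 19.4% of its words with Gm45208, an annotated gene on the same strand over it, and reads common to both could be split between them.

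Atp13a2 (ENSMUSG00000036622, chromosome 4 from 140986873 to 141007330) encodes the lysosomal P5-type ATPase that exports polyamines and is mutated in Kufor-Rakeb syndrome. For Atp13a2 the median was 1116 (1055 to 1187) in Tecpr2 ki/ki and 1146.5 (1079 to 1204) in wt/wt mice. The ranges overlapped over most of their length, and 6 of 8 ki/ki mice lay below the wt/wt median. The log2 fold change was -0.027 (95% interval -0.085 to 0.031, limma p = 0.357, adjusted p = 0.934, exact permutation p = 0.380). It lay between -0.015 and -0.018 when ki/ki mouse 2, wt/wt mouse 3 or wt/wt mouse 5 was left out.

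Fa2h (ENSMUSG00000033579, chromosome 8 from 111345135 to 111393824), the fatty acid 2-hydroxylase of oligodendrocytes, had nearly the same mean in both genotypes. The median of Fa2h was 405 (363 to 461) in Tecpr2 ki/ki and 403.5 (366 to 465) in wt/wt mice. The ranges coincided, and the log2 fold change was -0.00047 (95% interval -0.094 to 0.093, limma p = 0.992, adjusted p = 1.0, exact permutation p = 1.0), with a sign that turned under several alternatives. Between mice it varied with markers of the myelinating cells. Fa2h followed the mean of 10 oligodendrocyte markers with r = 0.709 (permutation p = 0.00213, adjusted over 6 correlations 0.0128) and rho = 0.771 (p = 0.00075, adjusted 0.0045), and r was 0.656 within ki/ki and 0.794 within wt/wt mice. This was the only 1 of the 6 correlations to pass at an adjusted p under 0.05. Without wt/wt mouse 4 and ki/ki mouse 8, the mice farthest from the marker median, r was 0.560 (permutation p = 0.0371, adjusted 0.198) and no longer passed the adjusted test. Leaving them out also cut the mice to 14 and narrowed the range of the markers. Tfrc and the mean of 10 endothelial markers had r = 0.076 (permutation p = 0.781, adjusted 0.931; rho = -0.015, p = 0.960, adjusted 0.960), with 0.057 within ki/ki, 0.097 within wt/wt and 0.014 without the 2 farthest mice.

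Levels of different genes were compared as normalised value per kilobase of merged GRCm38 exons, with the mean ± SD over all 16 mice. Fth1 stood first at 1912 ± 86.0, followed by Ftl1 at 640.7 ± 39.0, and neither overlapped a neighbour in the order. Atp13a2 (188.5 ± 7.76) and Tfrc (183.2 ± 12.0) overlapped each other. Fa2h stood at 134.5 ± 10.4 and Pank2 at 84.2 ± 3.28, each without overlap with the next gene. The last 4 genes, Coasy at 59.6 ± 5.71, Wdr45 at 40.1 ± 4.16, Pla2g6 at 30.9 ± 2.02 and Cp at 26.8 ± 1.33, overlapped from each to the next. With the longest transcript as the length, the first 6 places were the same, Wdr45 (82.4) passed Coasy (71.7) and Cp (56.2) passed Pla2g6 (49.9).

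**Figure D4:**
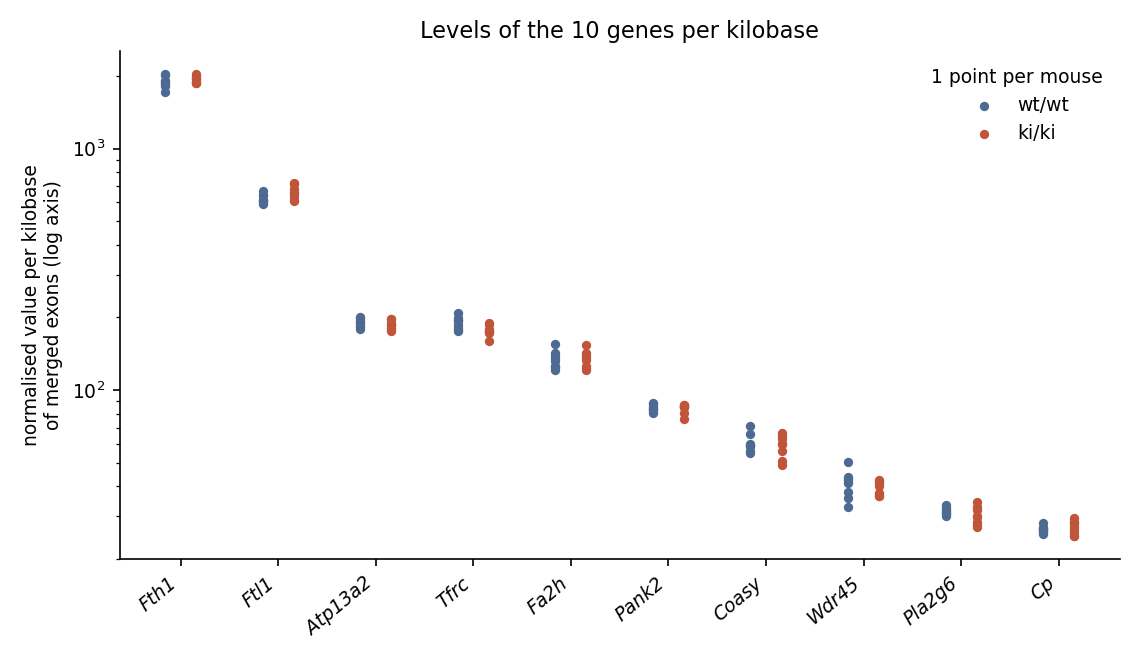
Normalised value per kilobase of merged exons (y axis, logarithmic) of the 10 genes in order of their mean, with 1 point per mouse, wt/wt in blue and Tecpr2 ki/ki in red. The ferritin chains Fth1 (1717 to 2037) and Ftl1 (587.3 to 717.9) lie above all other genes, and the genotypes overlap in every gene.

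Genes of the surrounding pathways were read from 12 lists of 126 genes, of which 119 were tested. None had an adjusted p under 0.1 and 2 (1.68%) had an unadjusted limma p under 0.01, a share near the 1.56% of all genes tested. Of the 119, 55 had a higher and 64 a lower mean in Tecpr2 ki/ki mice, with a median log2 fold change of -0.0072. Sptlc2, a subunit of the serine palmitoyltransferase that starts sphingolipid synthesis, was 1 of the 2. The median of Sptlc2 was 444 (416 to 462) in ki/ki and 471.5 (453 to 519) in wt/wt mice, and all 8 ki/ki mice lay below the wt/wt median (log2 fold change -0.11, limma p = 0.0057, adjusted p = 0.532, exact permutation p = 0.000932). The other was Pnpla7, a lysophospholipase related to Pla2g6, at 190.5 (168 to 206) in ki/ki and 170.5 (145 to 185) in wt/wt mice (log2 fold change 0.17, limma p = 0.0080, adjusted p = 0.588, exact permutation p = 0.0118). Without both mice numbered 3, the limma p was 0.0113 for Sptlc2 and 0.0194 for Pnpla7, so that neither passed.

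In the iron lists, no gene had an unadjusted limma p under 0.01. Of the 14 tested genes of iron uptake and transport, 5 were higher and 9 lower (median log2 fold change -0.012), and Cybrd1, a ferric reductase, had the smallest p. Cybrd1 was low in abundance, at a median of 35.5 (27 to 37) in Tecpr2 ki/ki and of 26 (23 to 32) in wt/wt mice, and 6 of 8 ki/ki mice lay above every wt/wt mouse (log2 fold change 0.35, limma p = 0.0115, adjusted p = 0.645, exact permutation p = 0.00155). Of the 9 tested genes of iron regulation and ferritin turnover, 5 were higher and 4 lower (median 0.00038). Aco1, which encodes the iron regulatory protein IRP1 that binds the hairpins shown above, was the first of this list, at a median of 307.5 (284 to 352) in ki/ki and of 336 (323 to 364) in wt/wt mice, where 7 of 8 ki/ki mice lay below every wt/wt mouse and ki/ki mouse 4 was the exception at 352. Its log2 fold change was -0.12 (limma p = 0.0122, adjusted p = 0.660, exact permutation p = 0.00932). Ireb2, which encodes IRP2, had a log2 fold change of 0.0097 (limma adjusted p = 0.982), and Ncoa4, the autophagy receptor of ferritin, had -0.031 (limma adjusted p = 0.927). The transferrin gene Trf had -0.0072 and the iron exporter gene Slc40a1 had -0.012 (limma adjusted p = 0.986 and 0.992). Among all 319 tested genes with a match to the hairpin, 6 (1.88%) had a p under 0.01 and 0 had an adjusted p under 0.1, beside 1.56% and 0.133% of all genes.

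Iron export and systemic control had 3 higher and 5 lower genes of 8 tested, and Tmprss6 had the smallest p (log2 fold change -0.23, limma adjusted p = 0.902, exact permutation p = 0.0932). The 15 heme genes had 9 higher and 6 lower, led by the heme exporter Flvcr1 (-0.077, limma adjusted p = 0.902, exact permutation p = 0.150). The 14 genes of iron-sulfur cluster assembly had 6 higher and 8 lower, led by Isca2 (0.12, limma adjusted p = 0.831, exact permutation p = 0.0311). Of the 9 tested genes of ferroptosis, the iron-dependent form of cell death, 4 were higher and 5 lower, led by Nfe2l2 (0.11, limma adjusted p = 0.875, exact permutation p = 0.048), and Gpx4, which detoxifies lipid peroxides, had 0.0059 (limma adjusted p = 0.990). In the other coenzyme A genes, 3 were higher and 5 lower of 8, led by Ppcs (-0.28, limma adjusted p = 0.820, exact permutation p = 0.0402) at a median of only 28.5 and 34.5 in ki/ki and wt/wt mice. The WIPI and ATG2 family, partners of Wdr45, had 3 higher and 3 lower of 6, led by Atg2b (0.037, limma adjusted p = 0.902, exact permutation p = 0.0584). The polyamine and P5-type ATPase genes had 3 higher and 7 lower of 10, led by Amd1 (-0.047, limma adjusted p = 0.875, exact permutation p = 0.0709). The myelin sphingolipid list of Sptlc2 had 6 higher and 5 lower of 11, and the phospholipase list of Pnpla7 had 3 higher and 2 lower of 5. Among 10 further genes of brain iron accumulation or related dystrophies, 5 were higher and 5 lower, led by Scp2 (0.065, limma adjusted p = 0.850, exact permutation p = 0.0146). Hamp, which encodes the iron hormone hepcidin, and Lcn2, Ltf, Hephl1, Hamp2, Ftmt and Tfap2c did not pass the filter on low values, and none of these 7 exceeded 15 in any mouse.

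**Figure D5:**
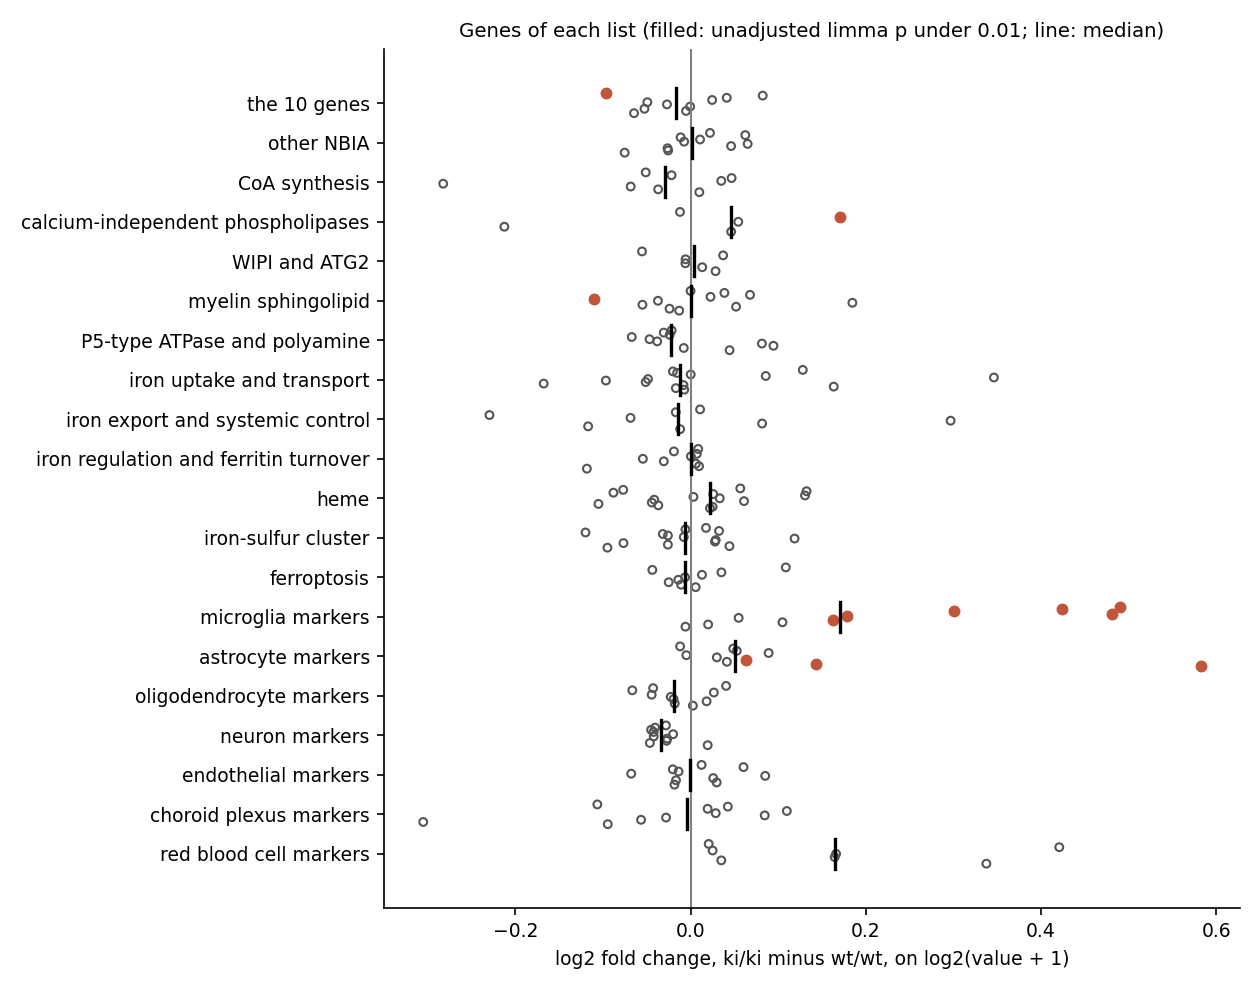
Log2 fold change between Tecpr2 ki/ki and wt/wt mice (x axis, on log2(value + 1)) of each tested gene of the 10 genes, the 12 pathway lists and the 7 marker lists (y axis), with filled points for an unadjusted limma p under 0.01, open points for the others and a line at the median of each list. Filled points stand in the microglia markers (6 of 10) and astrocyte markers (3 of 10), and otherwise only at Tfrc, Pnpla7 and Sptlc2.

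The genes whose values ran most like those of each of the 10 genes were found by Pearson's r over the 16 mice with the genotype means removed, among 17196 tested genes with a mean value of at least 20, as a description without a test. For Fth1 these were Adora1 (r = 0.891), Apoe (0.885) and Tecr (0.866), and for Ftl1 Prdx5 (0.862), Dock2 (0.832) and Mill2 (0.811). For Tfrc they were Gm21816 (0.870), Prdx3 (0.870) and Cyp2t4 (0.814), and for Cp Vps35l (0.846), Spata1 (0.814) and Zgrf1 (0.814). Pank2 ran with Pcdha5 (0.882), Slc17a8 (0.837) and Lingo4 (0.807), and Coasy with Jak1 (0.874), Tomm70a (0.818) and Gm336 (0.814). Fa2h ran with Huwe1 (0.873), Elob (0.870) and Brsk2 (0.850), Pla2g6 with Pced1b (0.851), Gtf3c6 (0.804) and Brk1 (0.798), Wdr45 with Poc1a (0.803), Gm48536 (0.781) and P2rx5 (0.775), and Atp13a2 with Mthfd1l (0.796), Dennd3 (0.789) and 5830417I10Rik (0.784). None of the 10 genes was among the 3 genes most like another of them. Each listed r is among the largest of 17196 over only 16 mice, so high values can arise without any relation. How high they would be by chance was not estimated, and the leading residual component was not removed.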

How the data were processed

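Total RNA of whole brain from 8 Tecpr2 ki/ki and 8 wt/wt mice was sequenced as stranded, rRNA-depleted libraries. According to the labels and the paper's methods, the authors trimmed reads with Trim Galore 0.6.10 and cutadapt 3.4, aligned them to GRCm39 with STAR 2.7.10b, counted them per gene with summarizeOverlaps and used DESeq2 1.40.2. The deposited values are a score per gene: linear normalised values rounded to whole numbers by a method not given in the sources used here. Rounding and scaling hide the depth, so no count test was run. The 16 single-mouse tables hold the same values as the table of all mice.

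Genes with values summing to more than 16 and above 5 in at least 4 mice of a genotype were tested with limma 3.58.1 in R 4.3.3 (trend and robust) on log2(value + 1), with genotype as the only term and Benjamini-Hochberg adjustment over all 23244 genes. Fold changes on this scale are understated for low values. Single genes were also compared by exact two-sided permutation over all 12870 splits (smallest p 0.000155), with p-values not adjusted over genes, and correlations by 100000 permutations. In data simulated for this comparison, with 200 of 23244 genes changed 1.25-fold up or down, limma recovered all 200 and called 18 of 23044 unchanged genes. The changed genes all had a mean value over 200, and 1 dispersion was used for every gene. Smaller changes, and changes in genes at lower values such as Pla2g6, Wdr45 and Coasy, were not simulated. Symbols were found for 52017 genes in the GENCODE annotation of GRCm38, an earlier build than the authors used, which also gave positions, lengths and transcript sequences. Python 3.11.15 with scipy 1.17.1 was used for these steps.

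The 10 genes, the gene lists and the tests were chosen with earlier results of these data known. Named genes were the 10 genes, Tecpr2, the genes of each list at p under 0.01 or otherwise with the smallest p, the 3 genes most like each of the 10, and ferritin pseudogenes with a mean of at least 5. Ireb2, Ncoa4, Trf, Slc40a1, Gpx4, Aif1, Csf1r, Tmem119 and Cx3cr1 were named after their values were seen. Of the listed genes, only Ahsp was not matched. Nothing in the labels gives a batch. The exact permutation p-values rest on the values of the single gene in these mice. Limma's p-values, SEs and intervals use a variance estimate that also draws on the other genes. The 2 can therefore differ, as for Tfrc (limma p = 0.00513, exact permutation p = 0.035) and, in the other direction, Sptlc2 (limma p = 0.0057, exact permutation p = 0.000932).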

Additional observations from a re-analysis of the deposited data

Results flagged for a closer look

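The values of the 10 genes, of Tecpr2 and of the genes named as first or as passing in each gene list were tested for mice that stood apart, in 74 groups of 8 mice (Dixon's test, 95% critical value 0.526), and 1 value did. Aqp4, the water channel of astrocytes, had a normalised value of 2195 in Tecpr2 ki/ki mouse 7, where the other ki/ki mice lay between 2245 and 2287 and the gap was 0.543 of the range. Chance alone flags about 1 in 20 groups.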

How the results depend on the processing

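The 10 genes were compared under 27 alternatives, 16 of them leaving out 1 mouse. In all of them 0 of the 10 genes had an adjusted p under 0.1, the smallest being 0.325. Of 270 comparisons of a log2 fold change with that first given, 254 kept its sign, and those of Tfrc, Ftl1, Fth1, Cp, Pla2g6, Wdr45 and Atp13a2 kept it in every one. Fa2h, near 0, turned to 0.00346 with libraries scaled to the mean total, to 0.00577 with array weights and to 0.00336 without both mice numbered 3, and it lay between -0.028 and 0.0288 with 1 mouse left out. Pank2 lay between -0.0143 and 0.016 with 1 mouse left out, and Coasy was 0.0112 without both mice numbered 3. The number of the 10 genes at an unadjusted p under 0.01, 1 at first, lay between 0 and 2 with 1 mouse left out, and was 2 (Tfrc and Ftl1) with the leading residual component as covariate. Over all genes, 31 called genes became 20 with no filter on low values, 64 with that covariate and 25 to 40 with 1 mouse left out. Pathway genes at p under 0.01 numbered 0 to 4.

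With a replicate block, the number of the 10 genes at p under 0.01 was 2 (Tfrc and Ftl1) and that of called genes over all was 46. Apart from the mice numbered 3, those with the same number did not deviate together (correlations -0.0503 to 0.0443). The mice numbered 3 had a correlation of 0.149, the only 1 of 8 over 0.1. Of the 8 ki/ki mice, 2 correlated best with their own number, so the numbers were not taken as pairs.

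The correlation of Tfrc with Fth1 was 0.382 without the 2 mice farthest from the median, where that of Fa2h with the oligodendrocyte markers was 0.56. Scaled to the mean total, that of Coasy with Pank2 was -0.0254, and without both mice numbered 3 that of Tfrc with the endothelial markers was -0.0421. The covariate and the omission of mice 3 were chosen after seeing the data, as was the sum of Ftl1 with its copies. Causes of these shifts were not tested. Depth is hidden by the scaling and rounding, so that no counting error could be given for any value.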
